A study of Mus musculus with 15 samples.

Results

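The miR-146 family of the mouse has 2 genes, and each gives a 5p and a 3p mature strand. All 4 strands, mmu-miR-146a-5p, mmu-miR-146a-3p, mmu-miR-146b-5p and mmu-miR-146b-3p, were followed here by name through 15 small RNA libraries of whole mouse lung. They are 4 of the 1424 mature miRNAs in the deposited table. All 4 also stand among the 818 that passed a filter on low values, which asked for more than 5 equalized counts in 3 or more libraries.

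Animals were C57BL/6 mice, either homozygous for the R213G form of extracellular superoxide dismutase (EC-SOD) or wild type (WT). EC-SOD, the product of Sod3, removes superoxide outside cells, and the R213G form is held less firmly by the tissue matrix. At 8 to 12 weeks of age each received a single dose of bleomycin into the trachea, 100 uL at 1 U/mL in phosphate-buffered saline (PBS), or the same route with PBS alone. Bleomycin breaks DNA and is used to injure the lung, with inflammation first and fibrosis later. Lungs were perfused with 10 mL of PBS and frozen on day 7, and the labels give an age of 11 weeks. The groups were R213G bleomycin (n = 4), R213G PBS (n = 4), WT bleomycin (n = 4) and WT PBS (n = 3). Mice of either sex were used, the labels do not give the sex of each, and a part of sex in any result was not tested. Nothing in the labels says outright that each library is a separate mouse, so p-values measure the spread between these libraries.

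A miRNA silences mRNAs that pair with its seed, which is bases 2 to 8 of the mature strand. Transcription of miR-146a is switched on by NF-kB downstream of Toll-like and interleukin-1 receptors. Its targets include the adaptors TRAF6 and IRAK1 of the same receptors, so that it acts as a brake on the signal that induces it. The paralogue miR-146b carries the same seed, is also raised by inflammatory stimuli in human monocytes, and is thought to repress an overlapping set of mRNAs. The 3p strands are passenger strands, mostly discarded when the duplex is loaded into Argonaute.

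The mature strands are shown because the paralogue comparison rests on how far they can be told apart. They were taken from RefSeq (GRCm38.p6), 5′ to 3′, with the seed in capitals, and all 4 strands were matched by name.
mmu-miR-146a-5p: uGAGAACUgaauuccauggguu
mmu-miR-146b-5p: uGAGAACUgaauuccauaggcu
mmu-miR-146a-3p: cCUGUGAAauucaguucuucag
mmu-miR-146b-3p: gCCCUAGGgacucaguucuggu
The 5p strands agree at 20 of 22 bases (90.9%) and are the same over the first 17 bases. They differ by G18A and U21C, with the miR-146a-5p base first and positions counted from 1 at the 5′ end. No other mature miRNA in the RefSeq table has this seed. The 3p strands agree at only 4 of 22 positions (18.2%) when set side by side without gaps, and their seeds differ. A read of a 5p strand that stops before base 18 fits both genes. No label says how such reads were assigned, so the split between the paralogues carries that uncertainty.

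The 5p and 3p strands lie on opposite arms of a hairpin, and the hairpins are printed with both mature strands in capitals.
Mir146: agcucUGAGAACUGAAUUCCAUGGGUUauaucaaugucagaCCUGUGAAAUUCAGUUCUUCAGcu
Mir146b: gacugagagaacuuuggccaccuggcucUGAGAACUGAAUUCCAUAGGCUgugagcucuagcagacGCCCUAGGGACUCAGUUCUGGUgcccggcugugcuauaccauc
Mir146, the gene of miR-146a, has 65 bases on the minus strand at chr11:43374397-43374461 (GRCm38). It overlaps no protein-coding, lincRNA, antisense or processed-transcript gene in GENCODE M21, and other gene types were not looked at. The nearest protein-coding gene is Pttg1, 45.8 kb upstream on the same strand. Mir146b has 109 bases on the plus strand at chr19:46342762-46342870, in an intron of Mfsd13a, which is read in the same direction. Nfkb2, which encodes an NF-kB subunit, lies 30.4 kb upstream of Mir146b on the same strand. Between the arms, 14 bases separate the strands in Mir146 and 16 in Mir146b.

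Values below are log2 of 1 plus a count that was equalized within each group, and a difference of 1 is a doubling. That unit was inferred from the values themselves, although the deposited table is named for RPKM. Equalized counts summed to 18087289.8 to 24759615.3 per library, which is not the sequencing depth, and the depth itself is unknown. All 4 strands are 22 bases long, so levels of different strands need no length correction. Whether strands of different sequence were captured equally well was not tested. Levels, shares and ratios compared between strands carry that uncertainty. Libraries of the same group differed pairwise with an SD of 0.179 to 0.513 (log2) over the 287 miRNAs with a mean above 8. A set of 7 miRNAs typical of lung epithelium, endothelium and smooth muscle made up 22.5% to 26.99% of the equalized counts, and 8 miRNAs of liver, brain, heart, pancreas and gut 0.008% to 0.0118%. Small RNA does not show the Sod3 allele, so the genotype labels could not be checked. Of the PBS libraries, WT PBS replicate 3 had the lowest miR-146a-5p and the highest miR-146b-5p, so WT differences are also given without it. It was picked from the values under test, so leaving it out had to enlarge the WT differences of these strands and of their ratio. Smaller p-values without it therefore add no support.

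miR-146b-5p was higher after bleomycin in both genotypes. In R213G bleomycin lungs it had log2 values of 17.38, 17.38, 17.85 and 17.22, against 15.33, 15.85, 15.59 and 15.70 in R213G PBS lungs. In WT bleomycin lungs the values were 17.44, 17.25, 17.25 and 17.53, against 15.36, 15.63 and 16.00 in WT PBS lungs. Every bleomycin library lay above every PBS library, with more than 1 log2 unit between the groups. Expressed as equalized counts, the means were 182540 in R213G bleomycin, 50668 in R213G PBS, 169512 in WT bleomycin and 52772 in WT PBS lungs. It ranked 19 to 20 by abundance in R213G bleomycin libraries, 50 to 61 in R213G PBS, 18 to 21 in WT bleomycin and 48 to 60 in WT PBS.

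The log2 difference of miR-146b-5p was 1.84 ± 0.15 (SE, limma, adjusted p = 1.55e-07) in R213G, with a 95% confidence interval of 1.52 to 2.16. That is 3.58-fold higher. In WT it was 1.70 ± 0.16 (SE, limma, adjusted p = 1.26e-06), with an interval of 1.36 to 2.05, or 3.25-fold higher. Without WT PBS replicate 3, the highest of its group, the WT difference was 1.87 (limma, adjusted p = 4.79e-07), a rise fixed by the choice of library. By p it ranked 7 of the 818 tested miRNAs in R213G and 8 in WT. For comparison, 22.2% of all tested miRNAs were called higher in R213G and 16.4% in WT. An adjusted p under 0.05 counts as called, adjusted by Benjamini and Hochberg over the 818.

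miR-146a-5p, the paralogue with the same seed, was lower after bleomycin. Its log2 values were 15.63, 15.46, 16.04 and 15.27 in R213G bleomycin lungs, against 16.27, 16.47, 16.38 and 16.21 in R213G PBS lungs. The R213G groups did not overlap, with bleomycin replicate 3 closest to the PBS libraries. In WT the values were 15.84, 15.54, 15.82 and 15.63 in bleomycin lungs, against 16.33, 16.47 and 15.84 in PBS lungs. Here the groups touched: WT PBS replicate 3 sat at the top of the bleomycin range, while replicates 1 and 2 lay above it.

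In R213G lungs miR-146a-5p fell by 0.73 ± 0.15 (log2, SE, limma, adjusted p = 0.00136), a level 1.66-fold lower, with a 95% interval of -1.06 to -0.41. In WT lungs it fell by 0.51 ± 0.17 (log2, SE, limma, adjusted p = 0.0311), 1.42-fold lower, with an interval of -0.86 to -0.16. Of all tested miRNAs, 19.8% were called lower in R213G and 10.3% in WT. The WT call is close to its threshold. It was lost without WT bleomycin replicate 2 (-0.45, limma, adjusted p = 0.0859) or 4 (-0.48, 0.0731), and without WT PBS replicate 1 (-0.45, 0.116) or 2 (-0.38, 0.158). Without WT PBS replicate 3 the WT difference was -0.69 (limma, adjusted p = 0.00426). That library was the lowest of its group, so leaving it out had to enlarge the fall, and the smaller p-value adds no support. The R213G call held with each library left out, at -0.88 to -0.63.

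Beside their limma counterparts stand the q-values of the authors' deposited table. It holds a 2-group test and a rank test, each made on the 2 groups alone. The q-values given are of the 2-group test unless the rank test is named. In the authors' deposited table miR-146b-5p has a q-value of 0.00673 in R213G and 0.109 in WT. For miR-146a-5p the authors' deposited table gives a q-value of 0.0821 in R213G and 0.394 in WT. At a q-value under 0.05, the authors' 2-group test would thus call miR-146b-5p in R213G and neither 5p strand in WT. The authors' rank test would call neither 5p strand in either genotype. With these group sizes the p-value of a rank test cannot go below 0.0286 in R213G or 0.0571 in WT. miR-146b-5p sat at that limit in both genotypes and miR-146a-5p in R213G, so no miRNA could have a lower q-value there. The rank test's q-value of miR-146b-5p is 0.109 in R213G and 0.223 in WT. For miR-146a-5p the rank test gives 0.109 in R213G and 0.304 in WT.

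**Figure D1:**
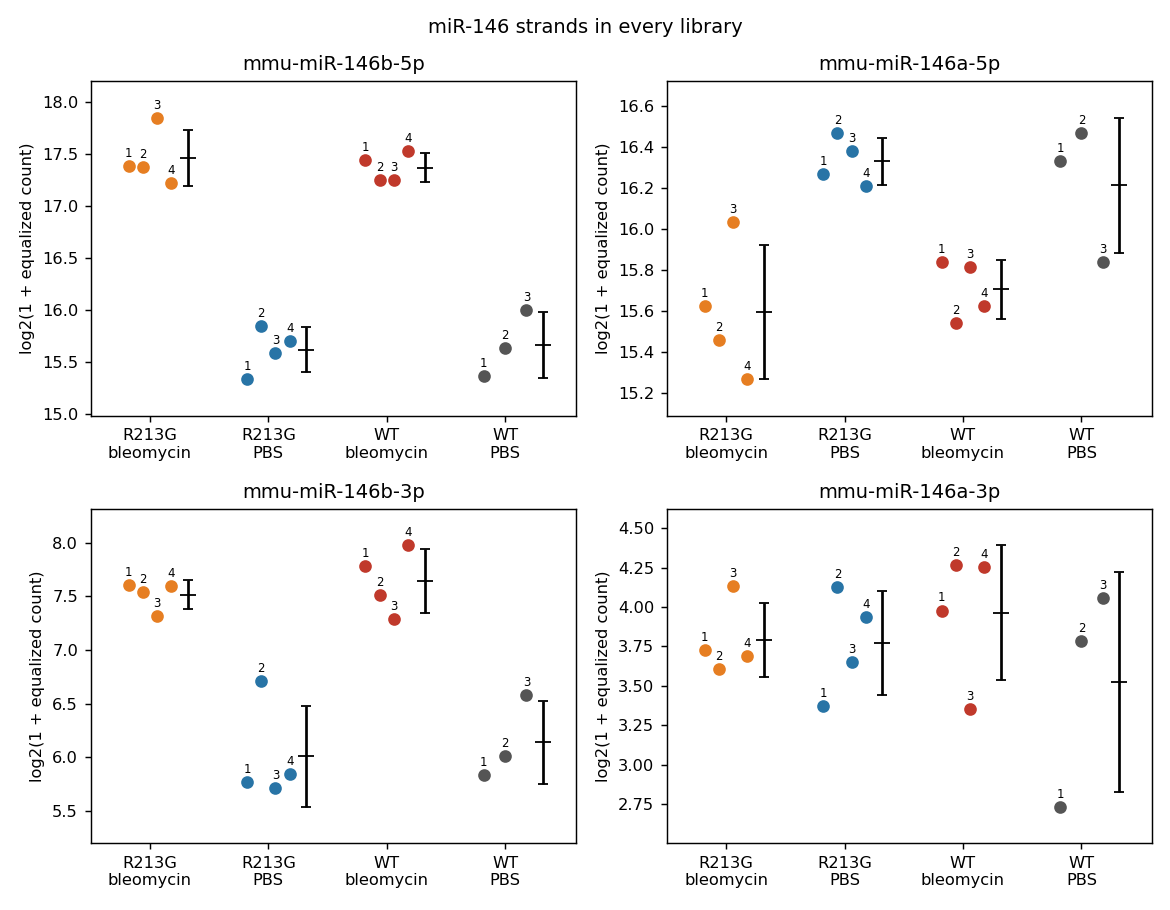
Each panel plots 1 strand, with the group on the x axis and log2 of 1 plus the equalized count on the y axis. Dots are libraries with their replicate number, and the bar is the mean with the SD over the 3 or 4 libraries of the group. The miR-146b strands separate bleomycin from PBS in both genotypes, miR-146a-5p moves the other way with WT PBS replicate 3 down at the bleomycin level, and miR-146a-3p overlaps throughout at low counts.

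The opposite directions changed which paralogue had the higher equalized count. miR-146b-5p exceeded miR-146a-5p in 8 of 8 bleomycin libraries, and in 1 of 7 PBS libraries, namely WT PBS replicate 3. The log2 ratio of miR-146b-5p over miR-146a-5p was 1.76, 1.92, 1.81 and 1.95 in R213G bleomycin lungs, against -0.94, -0.62, -0.79 and -0.51 in R213G PBS lungs. It was 1.60, 1.71, 1.43 and 1.90 in WT bleomycin lungs, against -0.97, -0.84 and 0.16 in WT PBS lungs. No bleomycin library came near a PBS library, and the R213G bleomycin libraries were close to each other, at 1.86 ± 0.09 (SD, n = 4).

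Over both genotypes the ratio was higher after bleomycin by 2.39 (log2), or 5.25-fold, with a 95% interval of 2.05 to 2.74 from a linear model. The exact permutation test within genotype, two-sided, gave p = 0.000816, the smallest it allows, and 0.0049 after adjustment over the 6 comparisons of the ratio. Within R213G the difference was 2.58 (exact permutation p = 0.0286, the smallest possible, adjusted 0.0857, interval 2.11 to 3.05). Within WT it was 2.21 (exact permutation p = 0.0571, the smallest possible, adjusted 0.114, interval 1.70 to 2.72). Without WT PBS replicate 3, the highest ratio of its group, the WT difference of the ratio was 2.56, a rise fixed by the choice of library. A design of 4 against 3 cannot pass the threshold. One of 4 against 4 can pass after adjustment only if other comparisons of the ratio also have small p-values. A ratio within a library shows an unequal change of the paralogues and is not altered by a scaling factor common to the library.

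Since the 5p strands share a seed, their equalized counts were also added. The pool was 221700, 215300, 303100 and 192400 in R213G bleomycin lungs, against 120300, 149700, 134500 and 129100 in R213G PBS lungs. In WT lungs it was 236000, 203700, 213400 and 239800 after bleomycin, against 124700, 141500 and 124100 after PBS. The groups did not overlap in either genotype, with R213G bleomycin replicate 3 the highest of all. In that library both 5p strands were the highest of their group, at a ratio of 1.81 that lay inside the group's range.

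The pooled level was 1.72-fold higher after bleomycin over both genotypes, a log2 difference of 0.78 (exact permutation p = 0.000816, the smallest possible, adjusted 0.0049, interval 0.58 to 0.99). It was 0.79 in R213G (exact permutation p = 0.0286, adjusted 0.0857) and 0.78 in WT (exact permutation p = 0.0571, adjusted 0.114), or 0.75 in WT without WT PBS replicate 3. miR-146b-5p supplied 78.4% ± 1.1 of the pool in R213G bleomycin, 37.9% ± 3.0 in R213G PBS, 75.9% ± 2.5 in WT bleomycin (SD, n = 4 each) and 40.8% ± 10.4 in WT PBS lungs (SD, n = 3). The wide SD of WT PBS comes from replicate 3, at 52.7%.

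**Figure D2:**
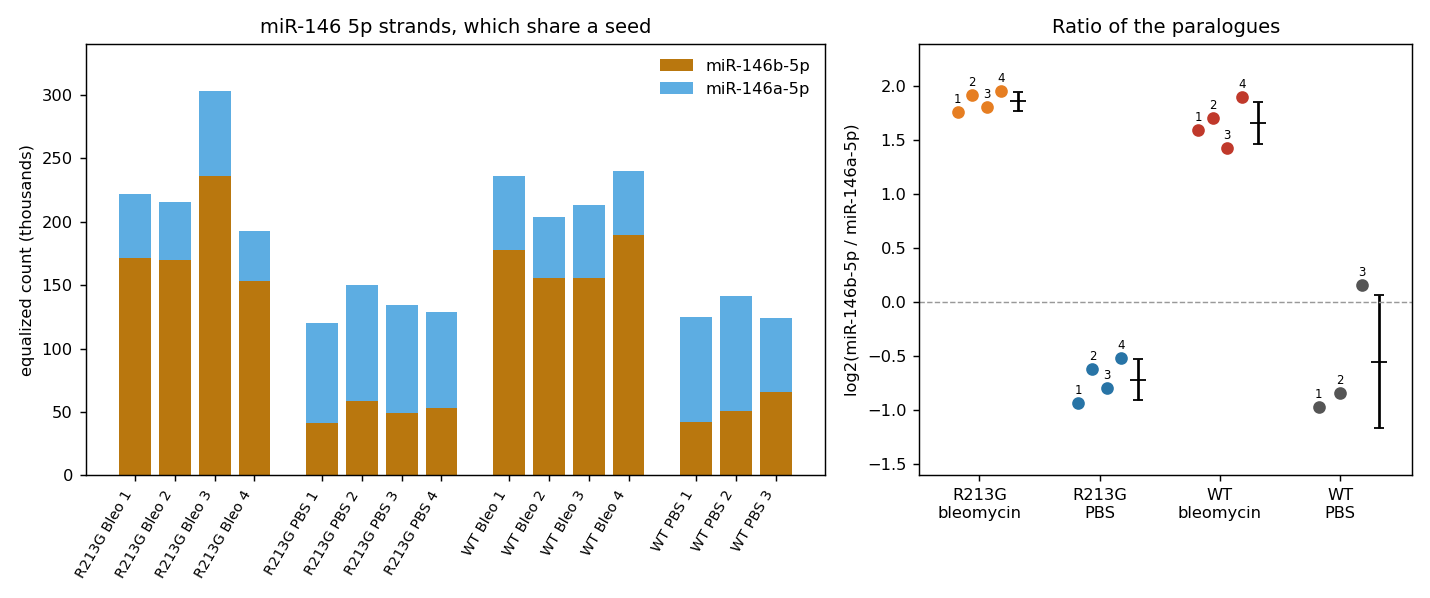
On the left, each stacked bar is 1 library, with the equalized counts of miR-146b-5p below and of miR-146a-5p above. On the right, the log2 ratio of miR-146b-5p over miR-146a-5p is plotted by group with mean and SD, and the dashed line marks equal levels. Bleomycin bars are taller and mostly miR-146b-5p, and all 8 bleomycin ratios lie at 1.43 or above while 6 of 7 PBS ratios are negative.

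The passenger strand of miR-146b followed its 5p partner. miR-146b-3p had log2 values of 7.61, 7.54, 7.31 and 7.59 in R213G bleomycin lungs, against 5.77, 6.71, 5.71 and 5.84 in R213G PBS lungs. In WT lungs the values were 7.78, 7.51, 7.29 and 7.97 after bleomycin, against 5.83, 6.01 and 6.58 after PBS. The groups did not overlap, and R213G PBS replicate 2 and WT PBS replicate 3 stood above the rest of their groups. The difference was 1.50 ± 0.22 in R213G (SE, limma, adjusted p = 9.8e-05) and 1.50 ± 0.24 in WT (SE, limma, adjusted p = 0.000272). Without WT PBS replicate 3 the WT difference was 1.72 (limma, adjusted p = 0.00011), and leaving out the highest PBS value of the group had to enlarge it. In the authors' deposited table its q-value by the 2-group test is 0.0488 in R213G and 0.114 in WT. By the authors' rank test it is 0.109 in R213G and 0.223 in WT, at the smallest p that test allows in each genotype.

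miR-146a-3p was scarce, with equalized counts of 5.66 to 18.23 in the 15 libraries. Its log2 values were 3.73, 3.61, 4.14 and 3.69 in R213G bleomycin lungs, against 3.37, 4.12, 3.65 and 3.93 in R213G PBS lungs. In WT lungs they were 3.98, 4.27, 3.35 and 4.26 after bleomycin, against 2.73, 3.79 and 4.06 after PBS. The groups overlapped in both genotypes. Its difference of 0.02 in R213G (interval -0.62 to 0.66, limma, adjusted p = 0.964) and of 0.44 in WT (interval -0.26 to 1.13, limma, adjusted p = 0.344) did not pass the test. The WT value rested on single libraries, at 0.04 without WT PBS replicate 1 and 0.70 without WT PBS replicate 3. Its interval takes in a doubling, so a change of that size could not be resolved at these counts.

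Strand ratios put both genes on the same footing. The log2 ratio of 5p over 3p for miR-146b was 9.94 in R213G bleomycin, 9.61 in R213G PBS, 9.73 in WT bleomycin and 9.52 in WT PBS lungs. Its difference over both genotypes was 0.27, with an interval of -0.07 to 0.61 (exact permutation p = 0.0653, adjusted 0.261 over 12 comparisons of strand ratios). For miR-146a the ratio was 11.81 ± 0.15 in R213G bleomycin, 12.56 ± 0.30 in R213G PBS, 11.74 ± 0.54 in WT bleomycin (SD, n = 4 each) and 12.69 ± 0.91 in WT PBS lungs (SD, n = 3). Over both genotypes its difference was -0.85, with an interval of -1.43 to -0.26, and this did not pass after adjustment (exact permutation p = 0.00898, adjusted 0.108). It passed without WT PBS replicate 3 (-1.08, exact permutation, adjusted p = 0.0229) and without WT bleomycin replicate 3 (-0.97, exact permutation, adjusted p = 0.0343). The first had the lowest ratio of its group and the second the highest, so leaving out either had to enlarge the difference. With quantile normalization the difference shrank to -0.40 and did not pass. As group means, passenger strands made up 0.0156% to 0.0287% of miR-146a and 0.104% to 0.134% of miR-146b.

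No strand was called between the genotypes. In order of level, miR-146b-5p averaged 17.46 ± 0.27 in R213G bleomycin, 17.37 ± 0.14 in WT bleomycin (SD, n = 4 each), 15.66 ± 0.32 in WT PBS (SD, n = 3) and 15.62 ± 0.22 in R213G PBS lungs (SD, n = 4). The genotypes were neighbours in that order and lay within each other's spread, and the large step was between treatments. For miR-146a-5p the order was R213G PBS at 16.33 ± 0.12 (SD, n = 4), WT PBS at 16.21 ± 0.33 (SD, n = 3), WT bleomycin at 15.71 ± 0.14 and R213G bleomycin at 15.60 ± 0.33 (SD, n = 4 each).

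R213G bleomycin against WT bleomycin lungs gave a difference of 0.09 for miR-146b-5p (interval -0.23 to 0.41, limma, adjusted p = 0.857). For miR-146a-5p it was -0.11 (interval -0.43 to 0.22, limma, adjusted p = 0.837). R213G PBS against WT PBS lungs gave -0.05 for miR-146b-5p (interval -0.39 to 0.30, limma, adjusted p = 0.992) and 0.12 for miR-146a-5p (interval -0.23 to 0.47, limma, adjusted p = 0.991). The genotype by bleomycin interaction, the R213G response minus the WT response, was 0.14 for miR-146b-5p (interval -0.33 to 0.61, limma, adjusted p = 0.919) and -0.23 for miR-146a-5p (interval -0.71 to 0.25, limma, adjusted p = 0.831). The intervals bound a genotype difference of either 5p strand after bleomycin to about 0.43 log2 units, and leave room for smaller ones.

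The R213G minus WT difference of the responses was 0.37 for the paralogue ratio (interval -0.32 to 1.06) and 0.01 for the pool (interval -0.40 to 0.42). Without WT PBS replicate 3 that of the ratio was 0.01, and that of miR-146a-5p was -0.04. Between R213G bleomycin and WT bleomycin lungs the ratio differed by 0.20, which did not pass (exact permutation p = 0.114, adjusted 0.171). In these 3 contrasts limma called none of the 4 strands and 0% of the 818 tested miRNAs. At an unadjusted p under 0.05, 97 miRNAs stood out between the genotypes after bleomycin, 44 after PBS and 65 in the interaction, and none of the 4 strands was among them. The names of R213G and WT libraries carry numbers from separate series, called tags here, so genotype and tag series cannot be told apart.

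**Figure D3:**
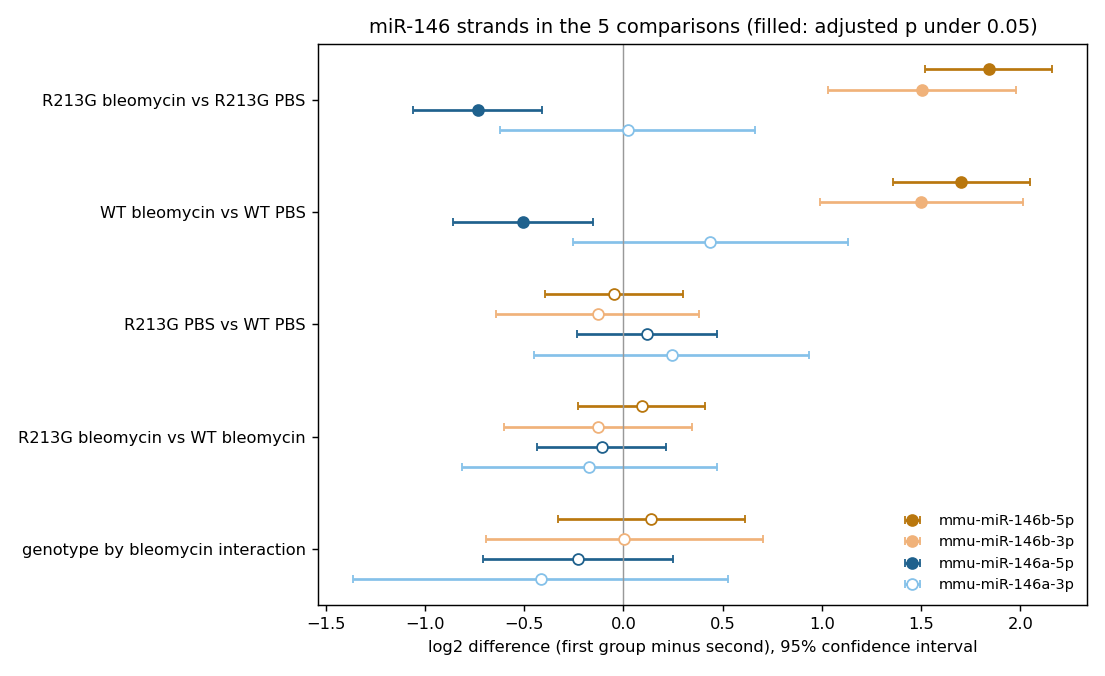
The x axis is the log2 difference, first group minus second, with its 95% confidence interval from limma, and the y axis lists the 5 comparisons. Each strand has its own colour and filled dots have an adjusted p under 0.05. The miR-146b strands lie at 1.50 to 1.84 in the bleomycin comparisons and miR-146a-5p at -0.73 and -0.51, whereas every interval of the genotype comparisons and the interaction covers 0.

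The tag numbers of the R213G libraries form an unbroken series, and no label marks a break in it. They were split here into lower numbers, replicates 1 and 3, and higher numbers, replicates 2 and 4. Each set has 2 bleomycin and 2 PBS libraries. In replicates 1 and 3 the log2 difference of miR-146b-5p was 2.16 and that of miR-146a-5p was -0.49. In replicates 2 and 4 the differences were 1.53 for miR-146b-5p and -0.98 for miR-146a-5p. Both directions held in each set. With so few libraries no test was made, and whether the sets were handled apart is unknown.

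The scaling of the libraries changed a call of miR-146a-5p and none of miR-146b-5p. The median tested miRNA had a difference of 0.05 in R213G and 0.05 in WT on the deposited values. With equal library sums the medians were 0.27 in R213G and 0.21 in WT, and with equal library medians -0.08 and -0.07. On these scales miR-146b-5p had differences of 1.71 to 2.05 in R213G and 1.59 to 1.99 in WT, quantile normalization included, and was called on each. miR-146a-5p was called in R213G on each, at -0.87 to -0.51. In WT it was called with equal library medians (-0.62, limma, adjusted p = 0.0221), and not with quantile normalization (-0.32, 0.168) or equal library sums (-0.34, 0.0609).

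Equal medians and equal sums apply a single factor per library, so the distance of a miRNA to the median miRNA barely changes by construction. On the deposited values, equal medians and equal sums the distance of miR-146a-5p was -0.79 in R213G on each. In WT it was -0.55, -0.55 and -0.54. Quantile normalization can change the distance, and gave -0.48 in R213G and -0.28 in WT. Calls over all miRNAs shift as well. In R213G 182 were higher and 162 lower on the deposited values, 148 and 199 with equal medians, and 236 and 79 with equal sums. In WT 134 were higher and 84 lower on the deposited values, 110 and 121 with equal medians, 114 and 108 with quantile normalization, and 190 and 39 with equal sums.

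**Figure D4:**
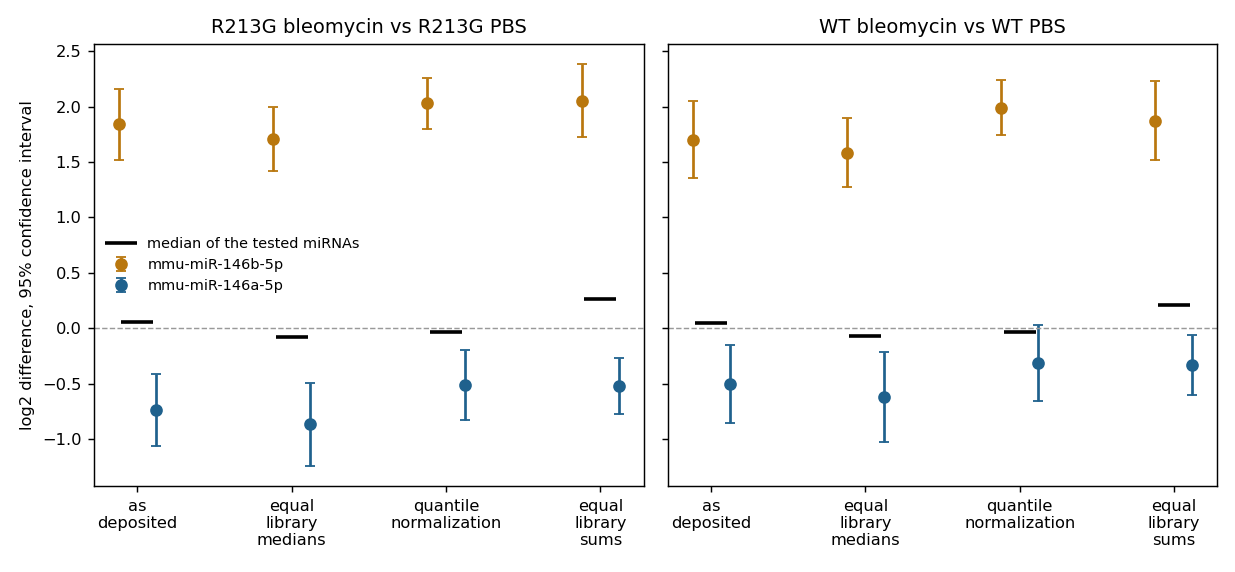
The y axis is the log2 difference of bleomycin minus PBS with its 95% confidence interval, for R213G on the left and WT on the right, under the 4 scalings named on the x axis. Short black bars are the median of the 818 tested miRNAs. miR-146b-5p stays above 1.5 on each scale, and miR-146a-5p stays below 0, with a WT interval that reaches 0.02 under quantile normalization.

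Other miRNAs reported to be induced by NF-kB or Toll-like receptor signalling were set beside miR-146. Of a list of 16, which includes both 5p strands, 8 were called higher, 2 lower and 6 neither in R213G, with a median difference of 0.45. In WT 7 were higher, 3 lower and 6 neither, with a median of 0.25. Of all 818 tested miRNAs, 22.2% were called higher and 19.8% lower in R213G (median 0.05), and 16.4% higher and 10.3% lower in WT (median 0.05). miR-21a-5p, widely raised in inflamed and fibrotic tissue, differed by 2.02 in R213G and 1.94 in WT. The neighbours miR-212-3p and miR-132-3p, induced by CREB and in monocytes by endotoxin, differed by 1.86 and 1.60 in R213G and by 1.90 and 1.73 in WT. With miR-146b-5p these had the smallest p of the list in both genotypes (limma, all adjusted p at or below 1.26e-06).

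The other members called higher are named although chosen after their values were seen. miR-155-5p, an inflammatory miRNA of leukocytes, differed by 1.00 in R213G and 1.06 in WT, and its 3p strand by 1.66 and 1.49. miR-147-3p, induced in macrophages by Toll-like receptors, differed by 3.69 in R213G and 3.09 in WT. In R213G miR-221-3p was also called, at 0.55. Called lower beside miR-146a-5p were miR-125a-5p, at -0.41 in R213G and -0.38 in WT, and in WT the epithelial miR-200c-3p, at -0.38. On this list miR-146a-5p therefore stood with the minority that fell, in both genotypes, and its WT call carries the limits given above.

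miRNAs known to repress components of NF-kB signalling, a separate list of 11, were divided. In R213G 3 were called higher, 5 lower and 3 neither, with a median of -0.18. Over all tested miRNAs 22.2% were higher and 19.8% lower. In WT 3 were higher, 2 lower and 6 neither, with a median of 0.13, where 16.4% of all were higher and 10.3% lower. The counts are small, and the share called higher in R213G is near that of all miRNAs. With equal library sums none was called lower in either genotype, so the count of lower members depends on the scale.

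Over the 15 libraries, miR-146b-5p was most alike to miR-184-3p (Pearson r = 0.987), miR-21a-5p (0.985) and miR-132-5p (0.977). After the group means were removed these were 0.744, 0.641 and 0.593. The r with its own 3p strand was 0.947, or 0.537 after removal. miR-146a-5p was most alike to miR-30d-5p (0.951), miR-26b-5p (0.937) and miR-27a-3p (0.935), with 0.872, 0.811 and 0.829 after removal. The last 3 held places 1, 3 and 4 with equal library medians, and 1, 7 and 4 with equal library sums. Under quantile normalization they held places 72, 76 and 8 (r = 0.701, 0.697 and 0.838), so the likeness was not kept on every scale. miR-146a-5p and miR-146b-5p had an r of -0.785 over libraries and 0.204 after the group means were removed. These correlations describe 15 libraries in 4 groups that share their treatment, and carry no test.

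Leukocyte miRNAs are given beside these. Of 7, 3 were called higher, 1 lower and 3 neither in R213G (median 0.22), where 22.2% of all tested miRNAs were higher and 19.8% lower. In WT 4 were higher, none lower and 3 neither (median 0.68), where 16.4% of all were higher and 10.3% lower. With equal library sums 5 were called higher in R213G. miR-511-3p, encoded in the macrophage gene Mrc1, differed by 1.74 in R213G and 1.25 in WT, and the myeloid miR-223-5p by 0.71 and 1.05. Its far more abundant partner miR-223-3p did not pass, at -0.18 in R213G (limma, adjusted p = 0.356) and 0.25 in WT (limma, adjusted p = 0.282). The one called lower was miR-150-5p, a lymphocyte miRNA, at -0.69 in R213G (limma, adjusted p = 0.00164), against 0.07 in WT, where it did not pass. This call was lost with quantile normalization. The interaction of miR-150-5p was -0.76 and was not called (limma, adjusted p = 0.523). It and miR-223-3p were named after their values were seen.

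Summed, the 7 made up 0.706% to 0.914% of the equalized counts in R213G bleomycin, 0.750% to 0.821% in R213G PBS, 0.712% to 1.02% in WT bleomycin and 0.546% to 0.666% in WT PBS libraries. None of the 7 was at 0 in a whole group. The sums overlapped between treatments in R213G and did not in WT. In R213G PBS lungs miR-150-5p was the most abundant of the 7, at a mean log2 of 16.47, and weighs most in the sums of that group. The part of leukocyte numbers in the miR-146 results was not tested. In whole lung, fewer cells of a type and less RNA per cell cannot be told apart, and this holds for both paralogues.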

How the data were processed

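Total RNA of whole lung (miRNeasy) was made into Illumina small RNA libraries, per the labels' protocols. The submitters' processing notes name Bowtie2 2.3.2, SAMtools 1.9 and edgeR, and no source used here gives the genome build or miRBase release. The deposited table holds, per library, log2 values that from the values themselves are the log2 of 1 plus a count equalized within each group, so that 0 reads can stand as a value slightly above 0. It also holds the authors' log2 fold changes, which equal differences of group means within 7.17e-09, and the authors' p-values and q-values of 2-group and rank tests.

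Here the log2 values entered limma 3.58.1 (R 4.3.3) as 1 model of the 4 groups and 15 libraries, the variance following the mean level. In all, 5 contrasts were tested on the 818 miRNAs with more than 5 equalized counts in 3 or more libraries, with Benjamini-Hochberg adjustment and a threshold of 0.05. Paralogue ratio, pool and strand ratios were compared by exact two-sided permutation (Python 3.11.15), adjusted over 6 comparisons each, or 12 for strand ratios. Intervals of these come from a linear model over the 4 groups. The procedures were tested on simulated data. Samples were grouped by their titles, and no library or member was left out.

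Members and lists were chosen with earlier results of these data known. Named beside the members were the 3 miRNAs most correlated with each 5p strand, and the members with the smallest p, 4 of the NF-kB list and 2 of the leukocyte list. Sequences are from RefSeq (GRCm38.p6), neighbours from GENCODE M21 (GRCm38). Alternatives were scaling, filter, pseudocount, trend, array weights, groups in the fit, a replicate term and leaving out each library. Equal library sums were added after seeing the data.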

Additional observations from a re-analysis of the deposited data

Results flagged for a closer look

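Of 24 sets of values checked, each strand or ratio in a group of 4 libraries, 2 held a library set apart from the others, and chance gives about 1 in 20. miR-146b-3p was 6.71 in R213G PBS replicate 2, against 5.71 to 5.84 in the other 3 libraries of that group. Its gap was 0.869 of the group's range, where 0.829 is the limit for 4 libraries. The difference of miR-146b-3p in R213G was 1.50 with this library and 1.74 without it. The log2 ratio of 5p over 3p of miR-146a was 11.58 in R213G bleomycin replicate 4, below the other 3 libraries, with a gap of 0.848 of the range. That library also had the lowest miR-146a-5p of its group, at 15.27.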

How the results depend on the processing

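With each library left out in turn, and under the other settings tried, miR-146b-5p and miR-146b-3p kept their direction and their call in both genotypes, and so did miR-146a-5p in R213G. The miR-146a-5p call in WT (-0.51) was lost with quantile normalization (-0.32), without an intensity trend (-0.51, adjusted p = 0.0633), with a replicate block (-0.45, limma, adjusted p = 0.0679), with equal library sums (-0.34), and with single libraries left out (range -0.69 to -0.38). Differences near 0 changed sign. For miR-146a-3p in R213G these were equal library medians (-0.11), quantile normalization (-0.21), array weights (-0.0534) and left-out libraries (-0.11 to 0.14). Array weights gave 0.0526 for miR-146b-5p between the PBS groups and -0.0401 for its interaction. With libraries left out, R213G PBS against WT PBS ran from -0.068 to 0.247 for miR-146a-5p, -0.20 to 0.12 for miR-146b-5p and -0.38 to 0.19 for the ratio. R213G bleomycin against WT bleomycin ran from -0.26 to 0.0002 for miR-146a-5p and -0.0378 to 0.17 for miR-146b-5p, and the interaction of miR-146b-5p from -0.0273 to 0.29, of miR-146a-5p from -0.37 to -0.04 and of the ratio from 0.01 to 0.58. For miR-146a-3p in WT the range was 0.04 to 0.70. The interaction of the pool was -0.0068 with equal library medians, -0.0286 with quantile normalization, and -0.12 to 0.10 with libraries left out. The causes were not tested.

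In a linear model over the 4 groups the ratio passed in R213G (2.58, adjusted p = 3.33e-07) and WT (2.21, 2.3e-06), as did the pool in R213G (0.79, 0.000189) and WT (0.78, 0.000272). The 5p over 3p ratio of miR-146b over both genotypes passed with quantile normalization (0.64, adjusted p = 0.0098), and that of miR-146a ran from -1.08 to -0.62 with libraries left out. Replicate numbers were not taken to pair the samples in the main tests, and whether they do was not settled. Deviations of same-numbered libraries correlated above 0.1 in 6 of 14 pairs (-0.145 to 0.262), and 12 of 28 were closest to their own number. Between the R213G groups these were 3 of 4 pairs and 6 of 8 libraries, and between the WT groups 0 of 3 and 0 of 6. With numbers as a replicate block, the ratio (2.38, exact permutation, adjusted p = 0.0781) and the pool (0.77, 0.0781) over both genotypes no longer passed. That design has fewer permutations, and 0.0781 is the smallest adjusted p it allows, so it could not pass.

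With equal library sums 79 miRNAs were called lower in R213G, against 162 on the deposited values, and 39 in WT, against 84. Lower members of the NF-kB-induced list in WT, 3, were 1 with quantile normalization, no trend, the block, or without any one of 4 WT libraries (bleomycin replicates 2 and 4, PBS replicates 1 and 2), and 0 with equal sums. Between the bleomycin groups, 2 miRNAs were called higher in R213G with array weights and 1 without WT bleomycin replicate 1. Read depth is unknown, so counting error could not be given, and miR-146a-3p at 5.66 to 18.23 equalized counts is the strand it limits most.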
